A study of Homo sapiens with 24 samples.

Results

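The transcripts of 9 transcription factors of the ETS family, ETV1, ETV4, ETV5, ETS1, ETS2, ELK3, ERG, ELF3 and EHF, were followed through prostate epithelial cells that overexpress C-Raf. They were chosen by symbol as ETS factors that lie downstream of ERK, and all 9 were found among the 60448 symbols of the expression tables, of which 19215 were protein-coding. They are 9 of the 28 ETS family genes measured.

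ETS factors bind DNA through a shared winged helix domain that reads a GGAA core. C-Raf is a kinase that activates MEK, and MEK activates ERK, which phosphorylates several ETS factors and also raises the transcription of some of them. The repressor Capicua (CIC) holds the PEA3 group genes ETV1, ETV4 and ETV5 down until ERK signalling releases it. In the prostate, ERG and ETV1 are best known from gene fusions in cancer, while ELF3 and EHF mark epithelial cells.

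The study asked how wildtype C-Raf acts on gene expression in immortalized prostate cells and in the metastases that they form. RNA was sequenced in 24 libraries of BPH-1, immortalized by SV40, and RWPE-1, immortalized by HPV18. The vector control cells carried the vector without C-Raf (3 libraries of BPH-1 and 1 of RWPE-1), and the C-Raf parental cells overexpressed wildtype C-Raf (3 and 4 libraries). The C-Raf metastasis-derived lines (6 and 7 libraries) were grown for about a week from tumours that C-Raf parental cells had formed in NOD-scid gamma mice after injection into the heart. These mice lack lymphocytes but keep their own stroma and myeloid cells. RWPE-1 cells were kept in serum-free medium with EGF, which itself activates ERK, and BPH-1 cells in serum, so that cell line and medium cannot be told apart. RWPE-1 metastasis-derived lines 1 and 2 came from lymph nodes, 3 and 4 from spine and 5 to 7 from bone. BPH-1 metastasis-derived lines 1 to 4 came from bone, and the labels of lines 5 and 6 name different sites. The tag sGluc stands in the titles of BPH-1 C-Raf parental and vector control libraries and in no other title. No label says that the vector control or C-Raf parental libraries of a group came from separate cultures, so p-values rest on a spread between them that may be technical. The metastasis-derived lines have separate labels, but the titles of RWPE-1 lines 1 and 2 share a number, as do those of BPH-1 lines 5 and 6, and whether each pair came from 1 animal is not stated.

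Levels are in CPM, the protein-coding counts of a gene relative to the library size, scaled between libraries by the trimmed mean of M values. BPH-1 metastasis-derived lines 2, 4 and 5 held only 111175 to 464804 protein-coding counts, against 20568102 to 41998756 in the other 21 libraries. In those 3 libraries 93.3% to 97.5% of all counts fell on the noncoding RNA RN7SL1. The share was 13.1%, 30.3% and 4.60% in BPH-1 metastasis-derived lines 1, 3 and 6 and at most 0.00932% in every other library. The 3 shallow libraries were left out of every fit and are described at the end, in CPM without the scaling factor. The epithelial markers EPCAM, CDH1, KRT8 and KRT18 summed to 577 to 2914 CPM in the 21 deep libraries. The luminal marker KLK3 had 0 counts in all of them.

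Promoter sequences are shown for ETV1 and ELF3, which had the largest fitted rise and the largest fitted fall among the 9 genes when C-Raf was added to BPH-1 cells. Each runs from 250 bases before to 50 bases after a transcription start, read 5′ to 3′ on the strand of the gene, from RefSeq on GRCh38.p14. The ETV1 window lies at chr7:13991376-13991675 on the minus strand and the ELF3 window at chr1:202010337-202010636 on the plus strand. Capitals mark matches, on either strand, to the Capicua octamers TGAATGAA or TGAATGGA, to the ETS core CCGGAA and to the AP-1 site TGANTCA.
ETV1: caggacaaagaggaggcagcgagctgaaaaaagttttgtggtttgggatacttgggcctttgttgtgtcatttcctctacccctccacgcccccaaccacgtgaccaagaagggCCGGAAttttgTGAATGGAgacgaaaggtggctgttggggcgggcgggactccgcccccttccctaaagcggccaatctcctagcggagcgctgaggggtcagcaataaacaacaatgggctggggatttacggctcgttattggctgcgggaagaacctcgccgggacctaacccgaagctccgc
ELF3: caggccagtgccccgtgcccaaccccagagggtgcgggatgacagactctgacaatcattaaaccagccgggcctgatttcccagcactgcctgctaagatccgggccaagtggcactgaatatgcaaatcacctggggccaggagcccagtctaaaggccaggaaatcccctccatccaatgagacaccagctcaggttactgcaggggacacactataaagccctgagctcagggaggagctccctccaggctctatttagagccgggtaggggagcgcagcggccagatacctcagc
The ETV1 window held 1 Capicua octamer, which starts 125 bases before the transcription start, and 1 ETS core, which starts 136 bases before it. Among 34943 promoter windows of the same length, 2.61% held a Capicua octamer, 17.2% the ETS core and 7.72% the AP-1 site. The ELF3 window held none of these letters. The RefSeq table gave 17 windows for 6 of the 9 genes, and 6 of these windows were of ETV1. The octamer was found in this ETV1 window alone, and the window shown is the one that holds it. The share of 2.61% is per window and not for a search of 17. The part of the octamer in the rise of ETV1 was not tested. ETV4, ETV5 and ETS1 had no entry.

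C-Raf overexpression in BPH-1 cells changed all 8 ETS factors that could be tested, 6 upward and 2 downward. ETV1 rose 11.2-fold, ETV4 2.07-fold and ETV5 1.71-fold, while ELF3 fell 3.45-fold. ELK3, EHF and ETS1 rose and ETS2 fell by less than 2-fold each. This was a comparison in which most genes moved: the quasi-likelihood test of edgeR, adjusted by the Benjamini-Hochberg method, called 59.8% of the 13229 genes tested at an adjusted p below 0.05, 30.4% higher and 29.4% lower. The median log2 fold change of the 8 ETS factors was 0.61, against -0.00177 over all genes tested. For each of the 8, the libraries with C-Raf and those with vector did not overlap, as was the case in 63.1% of all genes tested.

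ETV1 (chr7:13891228-13991425, minus strand, coordinates of all genes from GENCODE 29 on GRCh38) is a PEA3 group activator. Its level was 0.304, 0.564 and 0.405 CPM in the vector control libraries of BPH-1 and 4.31, 4.88 and 4.92 CPM in the C-Raf parental libraries. Every C-Raf parental library thus stood above every vector control library, though ETV1 remained a low-abundance transcript. The log2 fold change was 3.49 ± 0.19 (SE, edgeR adjusted p = 3.82e-15). ETV4 (chr17:43527844-43579620, minus strand) had 32.9, 33.0 and 34.1 CPM in vector control and 69.9, 68.0 and 68.8 CPM in C-Raf parental cells. Its log2 fold change was 1.05 ± 0.04 (SE, edgeR adjusted p = 9.12e-20). ETV5 (chr3:186046308-186110318, minus strand) rose from 45.5, 43.9 and 46.4 CPM to 78.1, 76.1 and 77.8 CPM, a log2 fold change of 0.78 ± 0.04. ETV4 shares exon bases with DHX8 on the opposite strand and ETV5 with DGKG on the same strand. Expected counts of ETV4 and ETV5 were whole in every library, which gave no sign of reads split with a neighbour. Reads assigned whole to the wrong gene would not show in this way. ELF3 shares exon bases with ELF3-AS1 and AL691482.3, and ELK3 with AC008149.1. Their expected counts were not whole in 19 and 15 libraries.

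ELK3, a ternary complex factor that works with SRF, lies at chr12:96194382-96269835 on the plus strand. ELK3 was at 107, 112 and 106 CPM in vector control and at 203, 199.9 and 199.9 CPM in C-Raf parental BPH-1 cells. The groups were far apart and the replicates close together, and the log2 fold change was 0.90 ± 0.03 (SE, edgeR adjusted p = 1.58e-20). ETS1 (chr11:128458761-128587558, minus strand), an activator that ERK phosphorylates, moved only from 93.9, 92.7 and 90.5 CPM to 111, 106 and 117 CPM, a log2 fold change of 0.28 ± 0.03. Its relative ETS2 (chr21:38805307-38824955, plus strand) went the other way, from 167, 164 and 170.2 CPM to 134, 135 and 134 CPM, a log2 fold change of -0.31 ± 0.03.

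ELF3 and EHF are epithelium-specific ETS factors, and C-Raf moved them in opposite directions in BPH-1 cells. ELF3 (chr1:202007945-202017188, plus strand) fell from 60.7, 62.0 and 60.5 CPM to 18.2, 16.8 and 18.0 CPM. The fall measured -1.79 ± 0.04 on the log2 scale (SE, edgeR adjusted p = 1.62e-23). EHF (chr11:34621093-34661057, plus strand) rose from 199, 203 and 188 CPM to 265, 252 and 279 CPM, a log2 fold change of 0.44 ± 0.03. ERG (chr21:38380027-38661780, minus strand) had 2 to 3 counts in each vector control and 1 to 3 in each library with C-Raf and was too low to test.

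**Figure D1:**
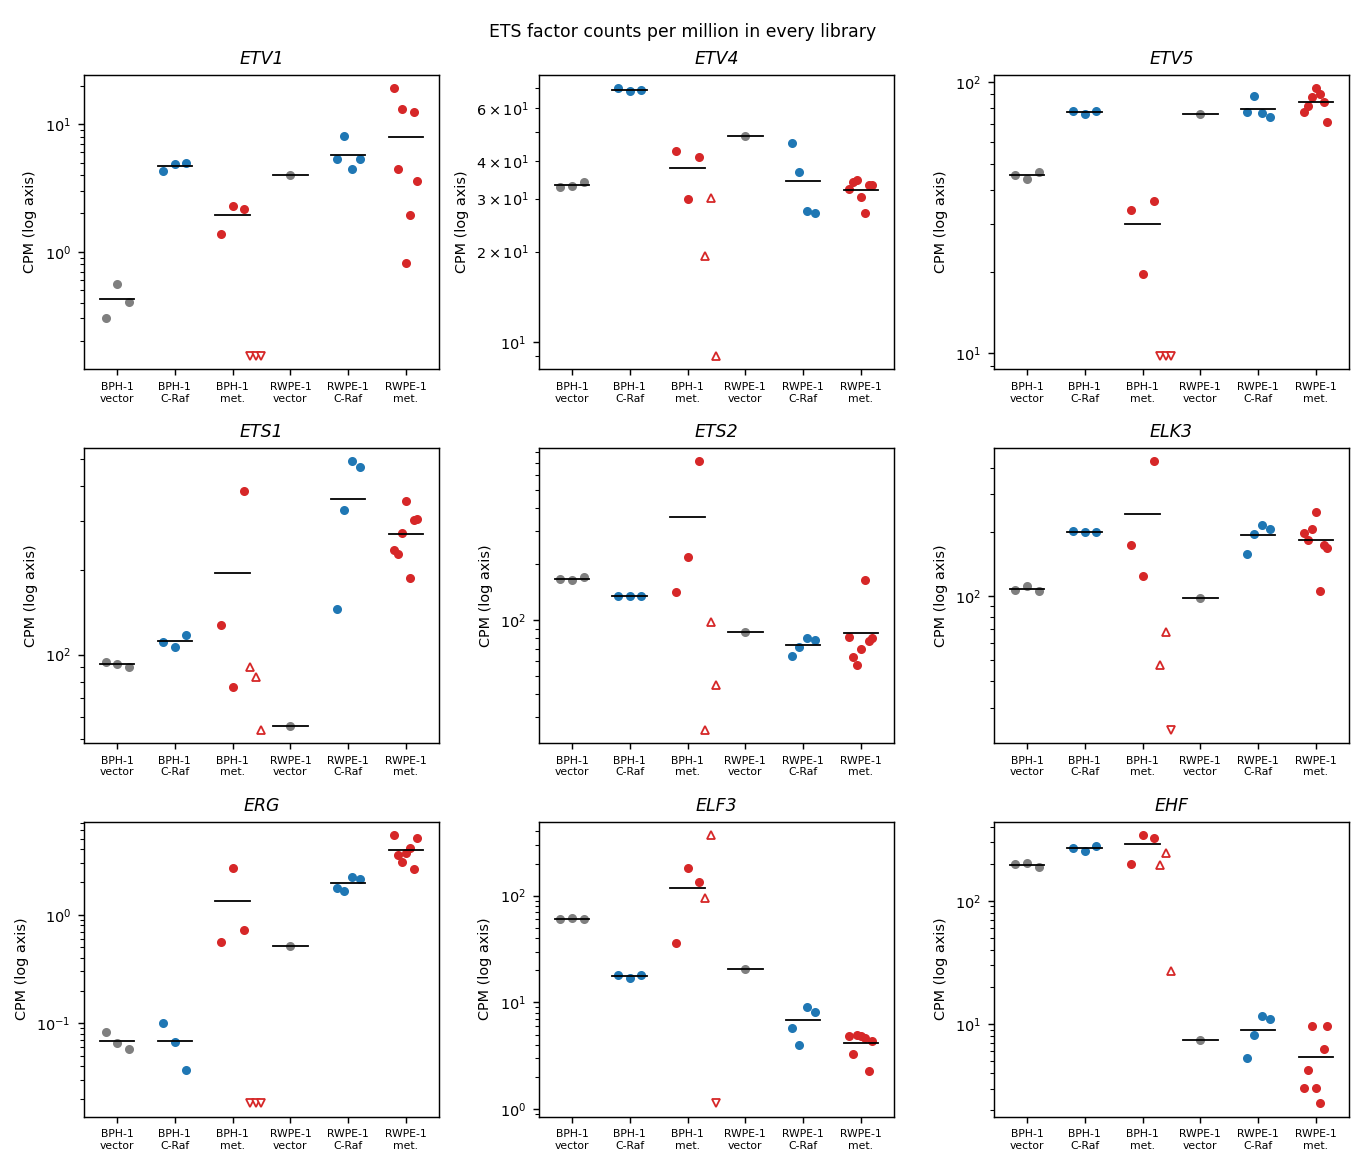
CPM of each ETS factor (log axis, own range in each panel) in every library of the 6 groups; filled points are the 21 deep libraries, black lines their group means, open triangles the 3 shallow BPH-1 metastasis-derived libraries (not scaled), and a triangle pointing down is a count of 0 drawn at a position with no meaning. In BPH-1 cells ETV1 stands at 0.304 to 0.564 CPM with vector and 4.31 to 4.92 CPM with C-Raf, while ELF3 drops from 60.5 to 62.0 CPM to 16.8 to 18.2 CPM.

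The spread between BPH-1 libraries of a group was small here, with a common biological coefficient of variation of 2.43%. When the 3 deep metastasis-derived lines shared the fit, ETV1 and ETV4 were the 2 ETS factors still called, of 378 genes called in all.

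The PEA3 group and ELF3 moved the opposite way in BPH-1 metastasis-derived lines. Relative to C-Raf parental cells, ETV5 was lower by 2.49-fold, ETV1 by 2.32-fold and ETV4 by 1.74-fold, whereas ELF3 was 6.98-fold higher and ERG also rose. In scaled CPM the libraries of the compared groups did not overlap for these 5 and for ETS2, 6 of 9 against 59.7% of all genes tested. For ETS2 this depended on the scaling. The 5 were called, 2 higher and 3 lower, where 37.7% of the 13452 genes tested were called, 20.9% higher and 16.8% lower. The C-Raf parental libraries also served in the comparison with vector control, so the opposite signs are not independent of each other. In bulk RNA, fewer cells that express a gene and less of its RNA in each cell cannot be told apart.

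ETV5 was at 33.7, 19.5 and 36.4 CPM in BPH-1 metastasis-derived lines 1, 3 and 6. All of these lay below the C-Raf parental libraries (76.1 to 78.1 CPM) and below vector control (43.9 to 46.4 CPM). The log2 fold change to C-Raf parental cells was -1.32 ± 0.24 (SE, edgeR adjusted p = 0.00838). ETV4 was at 43.1, 29.8 and 41.1 CPM, below every C-Raf parental library and on both sides of vector control, with a log2 fold change of -0.80 ± 0.17 (edgeR adjusted p = 0.0143). ETV1 was at 1.38, 2.30 and 2.17 CPM, between vector control and C-Raf parental values. Its log2 fold change was -1.21 ± 0.30 (edgeR adjusted p = 0.0226).

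ELF3 reached 36.0, 181 and 133 CPM in the same 3 lines. Each was above the C-Raf parental range of 16.8 to 18.2 CPM, and lines 3 and 6 were also above vector control. Without scaling between libraries the 3 lines ran from 36.3 to 126 CPM, against 17.9 to 19.2 CPM in C-Raf parental cells. The order of lines 3 and 6 depended on the scaling. The log2 fold change was 2.80 ± 0.58 (edgeR adjusted p = 0.0123). ERG had 16 to 33 counts in each line, or 0.564, 2.71 and 0.725 CPM, against 6 counts in the 3 C-Raf parental libraries together. The ratio of summed counts was 14.8 with a 95% interval of 6.45 to 41.7, which covers counting error only. The fitted log2 fold change was 4.201 ± 0.88 (edgeR adjusted p = 0.0127), a size that depends on the prior count.

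ETS1, ETS2, ELK3 and EHF were not called in this comparison. Line 6 was highest for the first 3, with 384 CPM of ETS1, 711 CPM of ETS2 and 428 CPM of ELK3. Line 1 had 127, 142 and 173 CPM and line 3 had 76.3, 218 and 124 CPM of ETS1, ETS2 and ELK3. After scaling, all 3 lines were above the C-Raf parental libraries in ETS2 (log2 fold change 1.46, 95% interval 0.06 to 2.86, edgeR adjusted p = 0.0918), and DESeq2 gave an adjusted p of 0.0257. Without scaling between libraries the 3 lines ran from 129 to 673 CPM of ETS2, against 141 to 143 CPM in C-Raf parental cells. The ETS2 groups thus overlapped without scaling. The ETS1 and ELK3 groups overlapped, with log2 fold changes of 0.86 (-0.49 to 2.20) and 0.32 (-0.75 to 1.38). EHF stayed between 199 and 341 CPM, with a log2 fold change of 0.18 (-0.44 to 0.80).

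The 4 epithelial markers summed to 577 to 961 CPM in these 3 lines, where 2421 to 2483 CPM had been measured in C-Raf parental cells, and 3 of the 4 were called lower. The basal keratins moved upward, with 3 of 4 basal markers (KRT5, KRT14, KRT15) called higher. The 6 fibroblast markers summed to 52.0 to 71.6 CPM, against 12.1 to 12.4 CPM in C-Raf parental cells. In vector control they summed to 27.2 to 29.7 CPM. Of these 6 markers, 2 could be tested, and 1 was called higher. Haematopoietic markers summed in each line to less than the 2.61 to 2.87 CPM of C-Raf parental cells. Of these, 2 could be tested and 0 were called. Endothelial markers, of interest since ERG is an endothelial ETS factor, summed to 3.01 to 40.8 CPM against 1.60 to 1.69 CPM. Most of that was VWF, at 10.3, 40.0 and 2.17 CPM, whereas PECAM1 was at 0.411 CPM or less and CDH5 at 0.317 CPM or less, and CDH5 was called lower. TMPRSS2, a luminal gene and the usual fusion partner of ERG, was at 1.80, 36.6 and 5.19 CPM against 0.0668 to 0.201 CPM. Of the 4 luminal markers 2 could be tested, and TMPRSS2 alone was called. The 4 together summed to 16.2 to 40.2 CPM against 14.4 to 16.7 CPM, and a fusion was not tested. The part of these markers, of RN7SL1 and of host cells in the results on ETS factors was not tested. The deep metastasis-derived lines were also deposited apart from the other BPH-1 libraries, so table and group cannot be told apart.

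Leaving out any 1 of the 3 C-Raf parental libraries left only ETV5 called of the 9, since adjusted p-values of the other 4 rose to between 0.0531 and 0.0980 while their directions held. With the 3 shallow libraries kept in, ELF3 and ERG were called and ETV1, ETV4 and ETV5 were not (edgeR adjusted p = 0.0641, 0.157 and 0.0637).

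In RWPE-1 cells no ETS factor passed the test of the metastasis-derived lines against their C-Raf parental cells. The edgeR test called 0 of 9, with 2 at an unadjusted p below 0.05, and DESeq2 called 1, ERG. Few genes were called in all, 0.0986% of 13186, of which 0.0758% were higher and 0.0228% lower. ETV4 and ETV5 had narrow intervals around 0, with log2 fold changes of -0.09 (-0.39 to 0.21) and 0.08 (-0.10 to 0.26).

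ERG was the 1 factor of the 9 whose RWPE-1 groups did not overlap. ERG was at 1.77, 1.67, 2.22 and 2.12 CPM in the 4 C-Raf parental libraries, and ran from 2.62 over a median of 3.74 to 5.43 CPM in the 7 metastasis-derived lines. Every line was above every C-Raf parental library. The log2 fold change was 1.02 ± 0.22 (SE, edgeR adjusted p = 0.165, DESeq2 adjusted p = 0.00317). Non-overlap of these groups occurred in 1.65% of all genes tested.

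ELF3 was the other factor at an unadjusted p below 0.05. It was at 5.76, 4.01, 9.16 and 8.20 CPM in C-Raf parental cells and ran from 2.28 over a median of 4.61 to 4.91 CPM in metastasis-derived lines. The groups overlapped at one parental library, and the log2 fold change was -0.71 ± 0.25 (edgeR adjusted p = 0.461). EHF ran from 5.28 to 11.7 CPM and from 2.28 to 9.70 CPM, with a log2 fold change of -0.72 ± 0.40 (edgeR adjusted p = 0.706).

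ETV1 varied most among the RWPE-1 metastasis-derived lines. It was at 19.2 and 4.45 CPM in the lymph node lines, 13.2 and 0.822 CPM in the spine lines, and 1.95, 12.4 and 3.58 CPM in the bone lines. Lines from the same site thus stood at both ends of the range, while the C-Raf parental libraries ran from 4.41 to 8.03 CPM. Line 5, from bone, stood apart in ETS2, at 163 CPM against 57.5 to 81.0 CPM in the other 6, and had the lowest ETS1 (187 CPM) and ELK3 (105 CPM) of the 7.

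RWPE-1 libraries were deposited in a pair of tables, and ETS1 moved in opposite directions within them. In the table with C-Raf parental library 1, ETS1 was at 145 CPM in that library and at 228 to 271 CPM in lines 1 to 3. In the other table, C-Raf parental libraries 2 to 4 were at 328 to 489 CPM and lines 4 to 7 at 187 to 352 CPM. ETV1, ELK3 and ETV4 also differed in sign between tables. ETV1 gave mean log2 differences of 0.96 and -0.95, ELK3 gave 0.32 and -0.31, and ETV4 gave -0.45 and 0.04. ERG kept its direction, with differences of 1.11 and 0.91 in the respective tables.

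**Figure D2:**
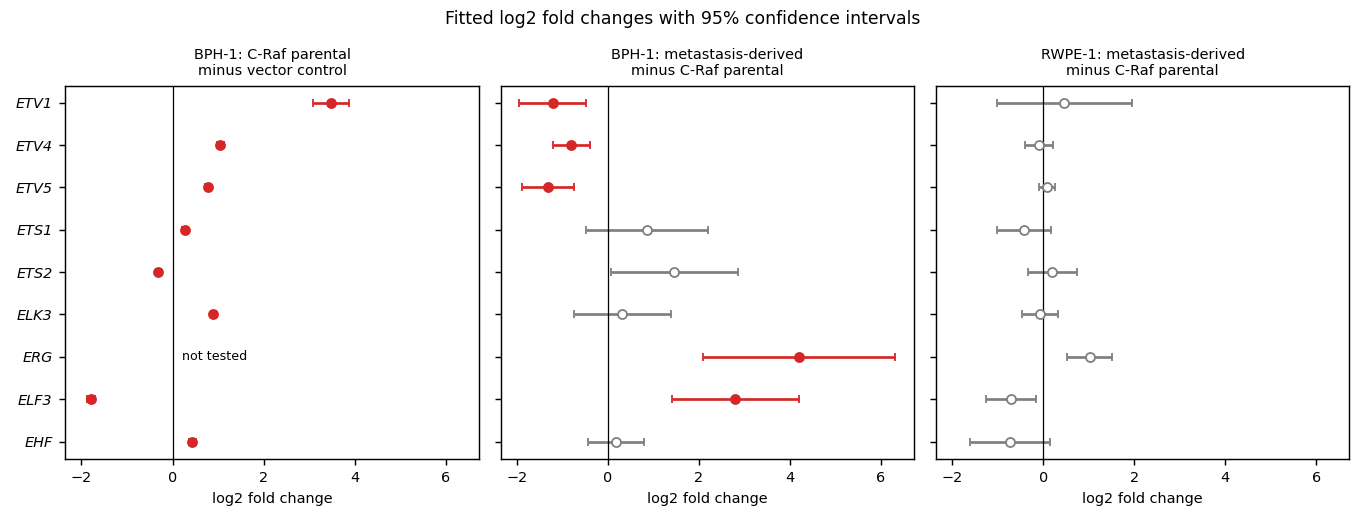
Log2 fold changes of the 9 ETS factors with 95% confidence intervals (bars) in 3 edgeR fits; filled red points had an adjusted p below 0.05 and open grey points did not. In BPH-1 cells ETV1, ETV4 and ETV5 lie right of 0 with C-Raf (3.49, 1.05 and 0.78) and left of 0 in metastasis-derived lines (-1.21, -0.80 and -1.32), and in RWPE-1 cells no factor was called.

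The metastasis effect, the change from C-Raf parental to metastasis-derived, differed between the cell lines for 4 of the 9 ETS factors. That is close to the share of all genes: in this interaction test edgeR called 44.5% of the 14267 tested. Of all genes tested, 21% were higher in RWPE-1 and 23.5% lower. The effects on ETV5 and ETV4 were higher in RWPE-1 than in BPH-1 cells, by 1.43 ± 0.22 (edgeR adjusted p = 8.48e-05) and 0.75 ± 0.23 (edgeR adjusted p = 0.0159) on the log2 scale. The effects on ELF3 and ERG were lower in RWPE-1 than in BPH-1 cells, with interaction terms of -3.45 ± 0.55 (edgeR adjusted p = 0.000131) and -3.14 ± 0.71 (edgeR adjusted p = 0.00206). ETV1 (1.73, 95% interval -0.40 to 3.85), ETS1, ETS2, EHF and ELK3 were not called. All 4 calls held when any single library was left out, RWPE-1 lines 1 and 2 with their shared number included. In BPH-1 cells, table and stage cannot be told apart, while each RWPE-1 table held libraries of both stages. Leaving out single libraries does not test the part of the table in these calls. The fit also shares a single estimate of spread per gene over all groups. BPH-1 C-Raf parental libraries differed far less from each other than BPH-1 metastasis-derived lines did, and the part of this in the calls was not tested.

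The effect of C-Raf in RWPE-1 cells has no replicate check, since there was 1 vector control library. ETS1 was at 55.7 CPM there (95% counting interval 53.1 to 58.3) and at 145 CPM in the C-Raf parental library of the same table, and the mean log2 difference over all 4 C-Raf parental libraries was 2.54. ELK3 was at 98.0 CPM against 157 to 216 CPM, a mean log2 difference of 0.97. ERG, with 17 counts, was at 0.520 CPM against 1.67 to 2.22 CPM. ELF3 was at 20.4 CPM against 4.01 to 9.16 CPM, a mean log2 difference of -1.65. ETV1 was at 3.98 CPM against 4.41 to 8.03 CPM, ETV4 at 48.4 CPM against 26.8 to 46.0 CPM and ETS2 at 86.5 CPM against 64.5 to 80.5 CPM. All 4 C-Raf parental libraries thus lay above the vector control in ETV1, ETS1, ELK3 and ERG and below it in ETV4, ETS2 and ELF3, 7 of 9, where 60.4% of the 13186 genes tested in RWPE-1 cells had all 4 on one side. ETV5 was at 76.3 CPM against 74.2 to 88.7 CPM and EHF at 7.38 CPM against 5.28 to 11.7 CPM, each with 3 libraries above the vector control and 1 below.

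Pooling both cell lines with a cell line term, edgeR called 0 of the 9 ETS factors for the effect of C-Raf, with 4 at an unadjusted p below 0.05. Of 15232 genes, 0.814% were called, 0.42% higher and 0.394% lower. The closest was ELK3, with a log2 fold change of 0.97 ± 0.26 (edgeR adjusted p = 0.0967). ETV1 had 2.20 ± 0.71 (edgeR adjusted p = 0.208). DESeq2 called both of these, with adjusted p-values of 0.00675 for ELK3 and 0.0237 for ETV1. Without the metastasis-derived lines in the fit, 5 ETS factors were called (ETV1, ETV5, ETS2, ELF3 and ELK3), where 1656 of 14339 genes, 11.5%, were called.

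For the pooled metastasis effect, ERG alone was called, with a log2 fold change of 1.80 ± 0.42 (edgeR adjusted p = 0.0279). Here 2.51% of 15232 genes were called, 1.77% higher and 0.748% lower, and the C-Raf parental libraries are shared with the comparison before. The ERG call was lost without any 1 of the BPH-1 C-Raf parental libraries (edgeR adjusted p = 0.0774 to 0.0955) and with only the compared stages in the fit (edgeR adjusted p = 0.0667).

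The largest differences of all were between the cell lines. In C-Raf parental cells EHF was 29.4-fold lower in RWPE-1 than in BPH-1 (5.28 to 11.7 against 252 to 279 CPM, log2 fold change -4.88 ± 0.26, edgeR adjusted p = 3.01e-06). ERG was higher in RWPE-1, with 59 to 79 counts in each library against 1 to 3, a ratio of summed counts of 28.2 with a 95% counting interval of 12.8 to 77.6. In all, 6 of 9 ETS factors were called, 2 higher and 4 lower in RWPE-1, where 74% of 13529 genes were called, 38% higher and 36% lower. ETS1 was higher by 1.69 ± 0.39, and ELF3, ETV4 and ETS2 differed by -1.37 ± 0.26, -1.01 ± 0.18 and -0.86 ± 0.08 on the log2 scale. ETV5, ETV1 and ELK3 were not called, and their 95% intervals ran from -0.12 to 0.20, from -0.20 to 0.80 and from -0.30 to 0.21. Table, medium and cell line cannot be told apart in this comparison.

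Over the 6 groups, EHF ranked highest in BPH-1 metastasis-derived lines (287 ± 77 CPM, SD, n = 3), then in BPH-1 C-Raf parental cells (265 ± 13.4, n = 3), and the ranges of these neighbours overlapped. The 3 RWPE-1 groups had means of 5.45 to 9.0 CPM and overlapped each other. ERG had its highest mean in RWPE-1 metastasis-derived lines (3.94 ± 1.03 CPM, SD, n = 7), and its means in BPH-1 cells with vector and with C-Raf, of 0.0691 and 0.068 CPM, did not differ beyond their spread. ETV5 was between 71.4 and 94.9 CPM in every RWPE-1 library, and the 3 RWPE-1 groups and the BPH-1 C-Raf parental group overlapped in sequence of rank. ETV4 was highest in BPH-1 C-Raf parental cells (68.9 ± 0.939 CPM, SD, n = 3), above all libraries of the other groups. ETS1 was highest in RWPE-1 C-Raf parental cells (358 ± 159 CPM, SD, n = 4), a group whose range overlapped that of RWPE-1 metastasis-derived lines.

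Per kilobase of exon, which allows a rough comparison of genes, EHF led in BPH-1 C-Raf parental cells with 60.5 ± 3.05 CPM per kb (SD, n = 3). The length used was that of all annotated exons of a gene together. It can exceed that of the transcripts expressed, to a degree that differs between genes, so the order of genes is approximate. ELK3 followed with 43.2 ± 0.397, ETS2 with 29.2 ± 0.0788, ETV4 with 19.1 ± 0.260, ETS1 with 15.6 ± 0.758 and ETV5 with 13.3 ± 0.183 CPM per kb. ELF3 (2.45), ETV1 (0.489) and ERG (0.00896 CPM per kb) were lowest. In RWPE-1 C-Raf parental cells ETS1 (50.05 ± 22.2 CPM per kb, SD, n = 4) and ELK3 (41.7 ± 5.57) led and did not differ beyond their spread. EHF was sixth there with 2.05 ± 0.665 CPM per kb, and ELF3 (0.944), ETV1 (0.600) and ERG (0.256 CPM per kb) closed the order.

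**Figure D3:**
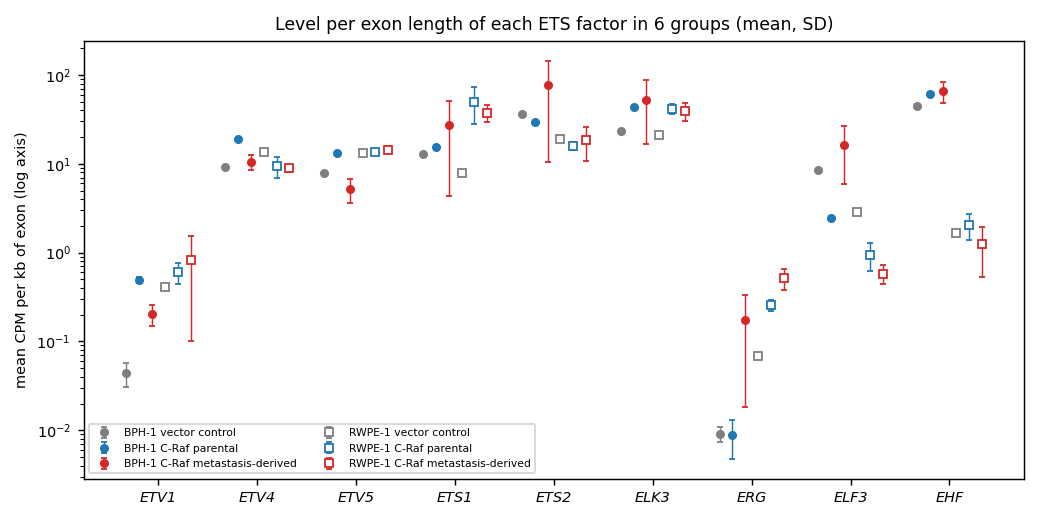
Mean level per kilobase of exon (CPM per kb, log axis) of the 9 ETS factors; circles are BPH-1 and open squares RWPE-1, grey is vector control, blue C-Raf parental and red metastasis-derived, and bars are SD (none for the single RWPE-1 vector control). EHF separates the cell lines, at 60.5 CPM per kb in BPH-1 and 2.05 in RWPE-1 C-Raf parental cells, while for ERG the C-Raf parental groups lie the other way, at 0.00896 and 0.256 CPM per kb.

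Of the other 19 ETS family genes, 13 could be tested for the effect of C-Raf in BPH-1 cells. Of these, 4 were called higher and 3 lower, 7 of 13 against 59.8% of all genes, with a median log2 fold change of 0.06. SPDEF, a luminal epithelial ETS factor, was at 0.0331 CPM or less in vector control and 0.404 to 0.735 CPM in C-Raf parental cells, and FLI1, the closest relative of ERG, rose by 1.17. In BPH-1 metastasis-derived lines, 6 of 15 were called higher and 1 lower, 7 in all against 37.7% of all genes. ELF5, a secretory epithelial factor, was at 2.01, 17.2 and 0.686 CPM there against 0.0734 CPM or less in C-Raf parental cells, highest in line 3 as ERG was. SPI1, a myeloid factor, was at 0.599, 0.739 and 1.45 CPM against 0.0334 CPM or less. The leukocyte gene PTPRC was at 0.0381 CPM or less in these lines. PTPRC does not stand for the haematopoietic markers as a list, which summed to at least 1.53 CPM in each line. Most of that sum thus came from other markers of the list. The part of myeloid cells in the level of SPI1 was not tested. In RWPE-1 metastasis-derived lines 0 of 12 were called by edgeR and by DESeq2, with 1 at an unadjusted p below 0.05. Between the cell lines, 10 of 13 were called in C-Raf parental cells, against 74% of all genes, and FLI1 was lower in RWPE-1 by -3.52 on the log2 scale.

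**Figure D4:**
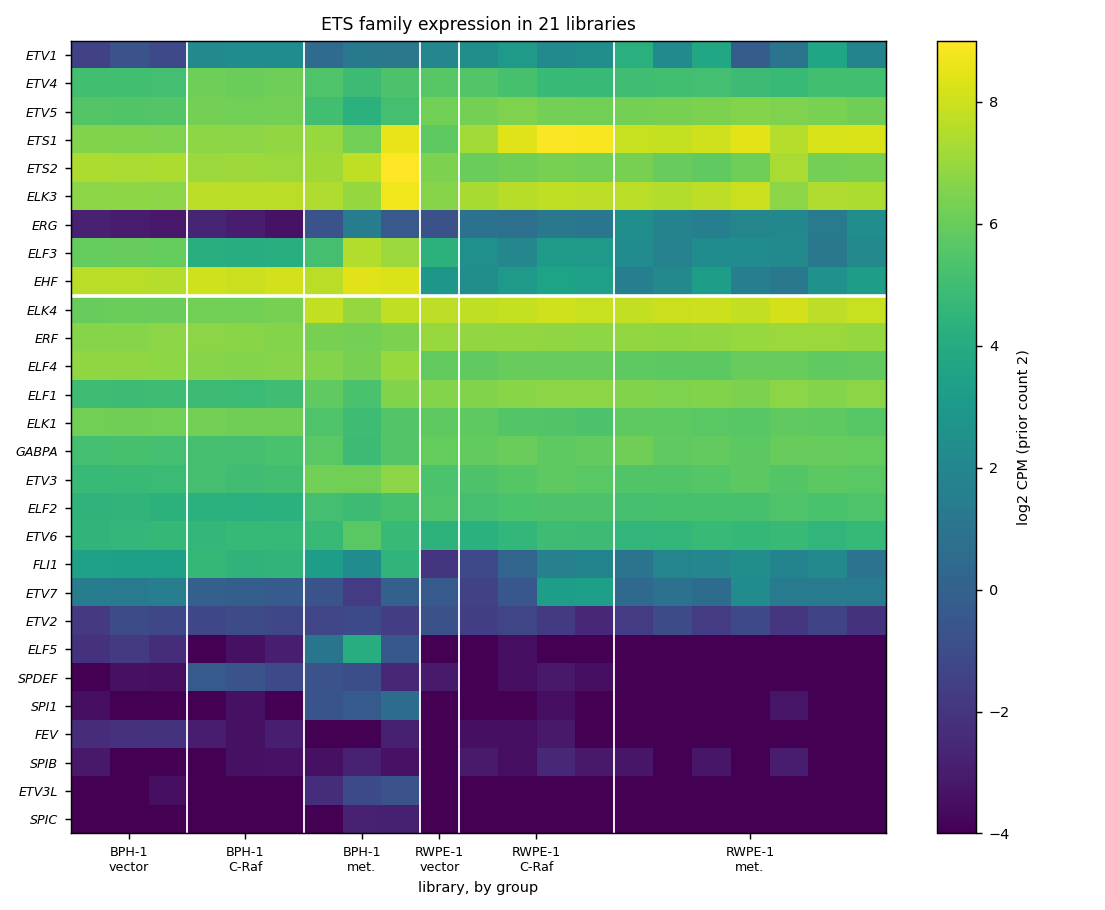
Log2 CPM (colour, prior count of 2) of the 9 ETS factors (above the white line) and the other 19 ETS family genes (below it, by falling mean) in the 21 deep libraries by group. EHF is brighter in every BPH-1 column than in every RWPE-1 column, with 188 CPM or more against 11.7 CPM or less, and in the third BPH-1 block ELF5 and SPI1 appear, at up to 17.2 and 1.45 CPM.

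Of 16 ERK output genes outside the ETS family, 14 rose and 2 fell with C-Raf in BPH-1 cells, where 59.8% of all genes were called, with a median log2 fold change of 0.80. SPRY4, a feedback inhibitor of the pathway, rose by 1.91 ± 0.06 (SE, edgeR adjusted p = 1.27e-21), and EPHA4, an Eph receptor, fell by 2.07 on the log2 scale. In BPH-1 metastasis-derived lines, where ETV1, ETV4 and ETV5 were lower, 1 of the 16 was called higher (EPHA4, 5.23 ± 0.63) and 1 lower (CCND1, -1.54), against 37.7% of all genes called, and the median was 0.05. In RWPE-1 metastasis-derived lines 0 of the 16 were called by edgeR, with 1 at an unadjusted p below 0.05 and a median log2 fold change of 0.11.

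Among 13 repressors, cofactors and degraders of ETS factors, C-Raf in BPH-1 cells was accompanied by 3 called higher and 5 lower, 8 of 13 against 59.8% of all genes. CIC itself changed by -0.23 and its partner ATXN1 by -1.06 on the log2 scale. In BPH-1 metastasis-derived lines 4 were higher and 5 lower, 9 of 13 against 37.7% of all genes. ATXN1 rose there by 2.85, from 5.28 to 5.75 CPM in C-Raf parental cells to 27.8, 55.1 and 32.0 CPM, while CIC was at 95.9, 305 and 73.6 CPM and was not called. SRF, the partner of ELK3, was lower by -0.79. The metastasis effect on ATXN1 differed between the cell lines by -3.38 ± 0.30 (edgeR adjusted p = 9.05e-07), and edgeR called 0 of the 13 in RWPE-1 cells, with 1 at an unadjusted p below 0.05. The part of CIC, ATXN1 and the other genes of this list in the results on ETS factors was not tested.

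Patterns most like those of the 4 factors called in both BPH-1 comparisons were sought among 12616 genes with a mean of at least 1 CPM, by Pearson correlation of log2 CPM over the 21 deep libraries after each cell line was centred on its mean. These libraries share groups and tables, so the values are descriptions. ETV5 was most like RSAD1 (r = 0.94), CDC42EP1 (r = 0.93) and LYPLAL1 (r = 0.93). ETV4 was most like CNTN1 (r = 0.87), SOX7 and FASTKD1 (r = 0.86 each). ETV1 had looser matches, HSD17B2 (r = 0.74), MPHOSPH6 (r = 0.73) and STX1A (r = 0.70). ELF3 was most like UBR2 (r = 0.92), FAM63A and TCP11L1 (r = 0.86 each).

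The 3 shallow BPH-1 libraries gave few counts for these genes. Their CPM, and the CPM of deep libraries set beside them here, were not scaled between libraries. ETV1, ETV5 and ERG had 0 counts in all 3. For lines 2, 4 and 5 the upper 95% Poisson limits of a count of 0 were 7.94, 27.9 and 33.2 CPM, all below the 81.0 to 83.0 CPM of ETV5 in BPH-1 C-Raf parental cells. ELF3 was at 94.7 CPM in line 2 (44 counts, interval 68.8 to 127) and at 370.04 CPM in line 4 (49 counts, 274 to 489), against 66.7 to 67.8 CPM in BPH-1 vector control, and had 0 counts in line 5. EHF was at 196, 242 and 27.0 CPM in lines 2, 4 and 5. ETV4 was at 19.4, 30.2 and 8.99 CPM, with 9, 4 and 1 counts. With 93.3% or more of counts on 1 noncoding RNA, the part of RNA quality in these values was not tested.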

How the data were processed

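The authors deposited 4 tables of gene-level expected counts, 1 column for each of the 24 libraries. The submitters' processing notes name cutadapt, FastQC, STAR, RSEM and hg38 without versions. The annotation is not given in the sources used here. Multi-mapped reads were shared between genes by RSEM, and expected counts of ELF3 and ELK3 were not whole in 19 and 15 libraries. Expected counts were rounded. Protein-coding genes were taken from GENCODE 29, where 36628 symbols matched and 985 more matched by an older name. Genes were filtered by filterByExpr, scaled by TMM, and tested by quasi-likelihood fits in edgeR 4.0.16 with Benjamini-Hochberg adjustment over all genes tested. Counts simulated with known changes served to check the direction and size of fold changes, in the fits within a cell line only. That check does not bear on a spread between libraries that may be technical. Alternatives used DESeq2 1.42.0, RLE scaling, ComBat-seq (sva 3.50.0), no filter, all symbols and other sets of libraries. Standard errors come from the F statistic. Intervals and limits from counts cover counting error only.

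The 9 ETS factors and all gene lists were chosen with earlier results of these data known. Beside the 9, genes of the lists, marker lists included, could be named where the adjusted p was below 0.05 and the absolute log2 fold change at least 1, at most 5 a comparison by size. RN7SL1, and outside the comparisons where that rule names them ATXN1, CIC, SRF, CCND1, FLI1, PTPRC, PECAM1 and CDH5, are given outside that rule, with their values known when they were picked. The level of the overexpressed gene itself is not reported here.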

Additional observations from a re-analysis of the deposited data

Results flagged for a closer look

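ETS2 was at 163 CPM in RWPE-1 metastasis-derived line 5, from bone, a gap to the nearest of the other 6 lines that is 0.778 of the range of the group. Dixon's test was applied to 18 sets (9 genes in RWPE-1 C-Raf parental cells and in RWPE-1 metastasis-derived lines) and marked 1, and chance marks about 1 set in 20.

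The metastasis effect differed between the cell lines for ETV4 (0.75), ETV5 (1.43), ELF3 (-3.45) and ERG (-3.14). The values are RWPE-1 minus BPH-1 on the log2 scale, from the interaction term of edgeR. These 4 of 9 ETS factors are close to the share of all genes tested that were called, 44.5%.

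ELF3 was at 94.7 CPM in the shallow BPH-1 bone line 2 and at 370.04 CPM in the shallow bone line 4, which no fit used, with lower 95% Poisson limits of 68.8 and 274 CPM against 66.7 to 67.8 CPM in BPH-1 vector control, all without scaling between libraries. These are 2 of 27 values read in the shallow libraries.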

How the results depend on the processing

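Of 1194 alternative values of the 9 ETS factors, 1115 kept their direction and their side of the threshold, 26 were weaker, 20 stronger and 33 changed sign, none of the latter past the threshold. No tested value of ETV1, ETV4, ETV5, ELF3 or ERG within BPH-1 cells changed sign. The cause of the shifts was not tested. Values of single genes below are log2 fold changes.

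For the effect of C-Raf in both cell lines, 456 genes and 2 ETS factors were called by DESeq2, 37 genes with the shallow libraries kept, 12 without a cell line term, and 1656 genes and 5 ETS factors with the compared stages only. Without 1 library, 38 to 287 genes and 0 to 1 ETS factors were called, most genes without the RWPE-1 vector control, and ETS2 ran from -0.26 to 0.13. EHF was -0.33 without a cell line term. For the pooled metastasis effect, 938 genes were called by DESeq2, 1781 with all symbols, 1 gene and 0 ETS factors without a cell line term, and 168 genes and 0 ETS factors with the compared stages only. Leave-one-out counts were 98 to 478 genes and 0 to 1 ETS factors. ETS1 was -0.045 with all symbols, -0.033 with the shallow libraries and -0.032 without a cell line term. ELK3 was -0.018 with all symbols and -0.17 with the shallow libraries, and ETV1 was 0.21 without a cell line term. Without 1 library, ETS1 ran from -0.27 to 0.20 and ELK3 from -0.18 to 0.13.

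In BPH-1 cells, 378 genes and 2 ETS factors were called for C-Raf with all deep libraries in 1 fit. For metastasis, 2093 genes and 2 ETS factors were called with the shallow libraries kept, where EHF was -0.080 and ELK3 -0.42. Leave-one-out counts were 1958 to 8309 genes, lowest without a C-Raf parental library and highest without line 3, and 1 to 6 ETS factors. EHF ran from -0.0086 to 0.39, ETS1 from -0.062 to 1.22 and ELK3 from -0.36 to 0.60, with the lowest ETS1 and ELK3 without line 6.

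In RWPE-1 cells, 174 genes and 1 ETS factor (ERG) were called by DESeq2, 20 genes with all symbols, and 2 within the table of C-Raf parental libraries 2 to 4, a choice made after seeing the data, where ETV1 was -0.34 and ETV4 0.029. Leave-one-out counts were 4 to 40 genes, most without line 5. ETV4 ran from -0.19 to 0.084, ETS2 from -0.040 to 0.28 and ELK3 from -0.17 to 0.019. In the interaction, 4173 genes were called with the shallow libraries, where ELK3 was 0.15, and ELK3 ran from -0.67 to 0.33 without 1 library. Between the cell lines, without the table of RWPE-1 C-Raf parental library 1 (also chosen after seeing the data), ELK3 was 0.036. Leave-one-out ranges were -0.10 to 0.036 for ELK3 and -0.027 to 0.069 for ETV5.

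No pairing of BPH-1 libraries by the numbers 1 to 3 was seen. Over 9589 genes the deviations of same-numbered libraries correlated at -0.04, -0.16 and -0.12, and those of libraries with different numbers at -0.05 to 0.14. These values cannot show whether the libraries were paired by design. With a replicate block 7685 genes and 8 ETS factors were called, and no call on an ETS factor changed. Low counts limit ERG in BPH-1 cells and most values of the shallow libraries.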
